A study of Mus musculus with 6 samples.

Results

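The major histocompatibility complex (MHC) antigen presentation genes described here are those rows of the deposited array table whose annotated symbol is H2-K1, H2-D1, B2m, H2-Aa, H2-Ab1, H2-Eb1, Cd74, Tap1, Tapbp or Ciita. Of these 10 genes 9 were measured, each by 1 row, among 19505 genes with a symbol on the array. Cd74, which encodes the invariant chain of class II molecules, was not analysed here. Livers of 3 HMGB2-KO mice and 3 wild type (WT) mice were compared, all male, 8 weeks old and on the C57BL/6 background. HMGB2-KO mice lack a working Hmgb2 gene, which encodes a nuclear protein that binds and bends DNA. The labels do not say which stretch of the gene was removed, and they name neither treatment nor surgery for either genotype. Total RNA of each liver was read on 1 Clariom S mouse array, a single-colour array with several short probes per gene, and where a gene's signal in whole liver differs, fewer cells of a type and less RNA per cell cannot be told apart.

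Class I molecules, made of a heavy chain such as H2-K1 or H2-D1 and the shared light chain B2m, show peptides from inside the cell to cytotoxic T cells and are found on nearly all cells, hepatocytes included. The transporter Tap1 and its partner Tap2 carry those peptides into the endoplasmic reticulum, where the bridging chaperone Tapbp (tapasin) holds the empty class I molecule. Class II molecules pair an alpha chain (H2-Aa) with a beta chain (H2-Ab1), and in liver they are known mainly from Kupffer cells, dendritic cells and B cells, under the control of the transactivator Ciita. C57BL/6 mice carry a defective alpha chain gene for the other class II pair, so the product of H2-Eb1 is not shown at their cell surface.

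Values are log differences from a baseline of each row, with log2 assumed, after every array was centred on its own median. Differences between livers can thus be read and levels of different genes cannot be compared. Hmgb2 itself was at -0.66, -0.33 and -0.43 in HMGB2-KO replicates 1 to 3, against 0.47, 0.36 and 0.42 in WT replicates 1 to 3, so all 6 labels fit this gene. Its log2 fold change was -0.89 (SE 0.13), with an adjusted p of 0.645 in limma, the model for all comparisons here. As deposited, WT replicate 2 had an array median of 0.26 over all rows, against -0.05 to -0.04 on the HMGB2-KO arrays and -0.04 and 0.01 on the other WT arrays. Olfactory receptor rows, of genes with little or no liver expression, were at a median of 0.51 there, but its 64 rows of ribosomal proteins were at -0.04, against -0.26 to -0.13 on the other arrays. After centring, the ribosomal rows are therefore lowest on that array. Results are given with the values as deposited as well, which move the median log2 fold change of all genes by -0.12, with arrays centred on the ribosomal protein rows (-0.07), and without WT replicate 2.

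RefSeq promoter windows of assembly GRCm38.p6 run from 250 bases before to 50 after a start of transcription. None was at hand for H2-Ab1 and Ciita, which were not searched. The windows of the other 7 of the 9 measured genes show what these genes share in sequence. In 4 of them the letters TGACG, the core of the cAMP response element that forms the rear part of the X box, were followed on the gene's strand by ATTGG, the Y box CCAAT read from the other strand. The distance from the first base of TGACG to the first base of ATTGG was 25 bases in H2-K1, H2-D1 and B2m and 26 bases in H2-Aa. X and Y boxes are known as the docking sites of the RFX, CREB and NF-Y factors, on which CIITA builds at class II promoters and NLRC5 at class I promoters. Of 27025 genes with a window, 74 (0.274%) held TGACG with ATTGG starting 20 to 30 bases after it. Among the genes of the antigen presentation list defined further on, 6 of 59 (10.2%) did, the other two being H2-M3 and H2-Q7. This arrangement was defined after the members' promoters had been read, and 4 of those 6 genes are members. Its share among the members and in the list is therefore a description.

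The stretches below are upstream of the annotated start and show the shared spacing in H2-D1, B2m and H2-Aa. The H2-Eb1 stretch is given for contrast, with a Y box but no TGACG before it. Only exact letters were searched, so an X box of other letters in H2-Eb1 would be missed. Capitals mark the TGACG core, the Y box read as ATTGG, and matches to an interferon-stimulated response element. They lie at chr17:35262939-35263029 (H2-D1, plus strand), chr2:122147543-122147645 (B2m, plus strand), chr17:34287860-34287922 (H2-Aa, minus strand) and chr17:34305755-34305819 (H2-Eb1, plus strand). The H2-K1 stretch is not shown because the RefSeq gene model also reaches past it.
H2-D1: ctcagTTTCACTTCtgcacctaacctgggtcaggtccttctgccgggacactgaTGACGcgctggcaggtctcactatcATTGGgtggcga
B2m: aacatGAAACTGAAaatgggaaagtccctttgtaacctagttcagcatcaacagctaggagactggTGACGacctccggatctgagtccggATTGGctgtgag
H2-Aa: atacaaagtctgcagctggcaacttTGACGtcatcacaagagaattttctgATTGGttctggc
H2-Eb1: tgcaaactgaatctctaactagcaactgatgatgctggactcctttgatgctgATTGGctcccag

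Single motifs were searched on both strands and were common among all genes. CCAAT was found in each of the 7 windows and in 37.9% of all windows, and TGACG in 5 of the 7 (the 4 above and Tap1) and in 21.0% of all. In H2-Aa the TGACG matches of both strands overlap. The interferon-stimulated response element was searched as GAAANNGAA, found in B2m and in 8.57% of all windows, and as GAANNGAAA, found in H2-K1 and H2-D1 and in 7.56% of all. The X box, searched as CCNAGNNAC, matched H2-Aa and Tap1, and 17.4% of all windows. In H2-Aa the match began at base -180 from the start, away from the TGACG at -74 that precedes the Y box. The gamma-activated site TTCNNNGAA matched no member, and 8.47% of all. TGACG and GAANNGAAA were added to the search after the sequences had been read. The H2-K1 and H2-D1 windows had the same base at 88.3% of 239 aligned positions, and the Tap1 window shares 275 bases with that of Psmb9, an immunoproteasome gene read in the opposite direction.

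**Figure D1:**
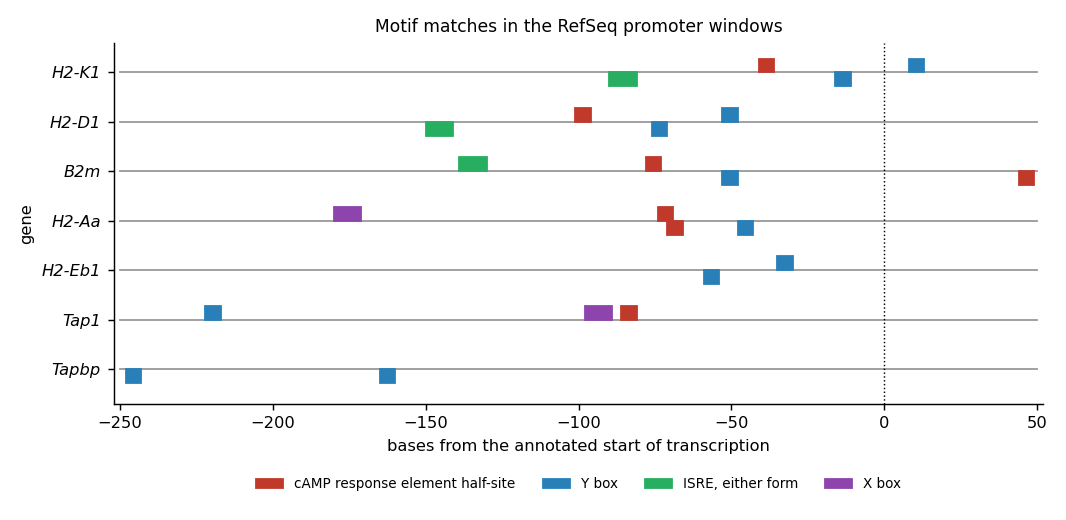
Motif matches in the promoter windows of the 7 genes, by distance in bases from the annotated start of transcription; boxes above a line are on the gene's strand and boxes below it on the other. In H2-K1, H2-D1, B2m and H2-Aa the red TGACG box stands 25 or 26 bases before the blue Y box on the other strand, while Tapbp has only Y boxes, far from its start.

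For no member gene was a difference between HMGB2-KO and WT livers shown beyond the spread between livers. In limma, with Benjamini-Hochberg adjustment over all 19505 genes, 0 of the 9 passed an adjusted p of 0.05, with adjusted p from 0.994 to 0.999, and the same holds for the array as a whole (0 genes called, 0%). At an unadjusted p under 0.05 the count was 0 of 9, beside 3.68% of all genes (1.06% higher and 2.61% lower in HMGB2-KO). A fold past 1.5 either way was reached by 0 of the 9, beside 2.82% of all genes. The log2 fold change was above 0 for 8 of the 9, beside 49.5% of all genes, with a median of 0.10 against -0.00. Other scalings shift all genes alike: as deposited 2 of the 9 were above 0, beside 23% of all genes, and centred on ribosomal proteins 5 of 9, beside 34.4%. The members' median stayed 0.11 above that of all genes under each of these 3 scalings, which such a shift cannot change. Without WT replicate 2 it was 0.0080 above it, with 4 of 9 above 0, beside 47.7% of all genes. The 95% confidence intervals reached from 0.31 to 0.56 log2 either side of the estimate. They rest on limma's standard errors, which draw on the spread of all genes as well as on that between the separate animals.

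**Figure D2:**
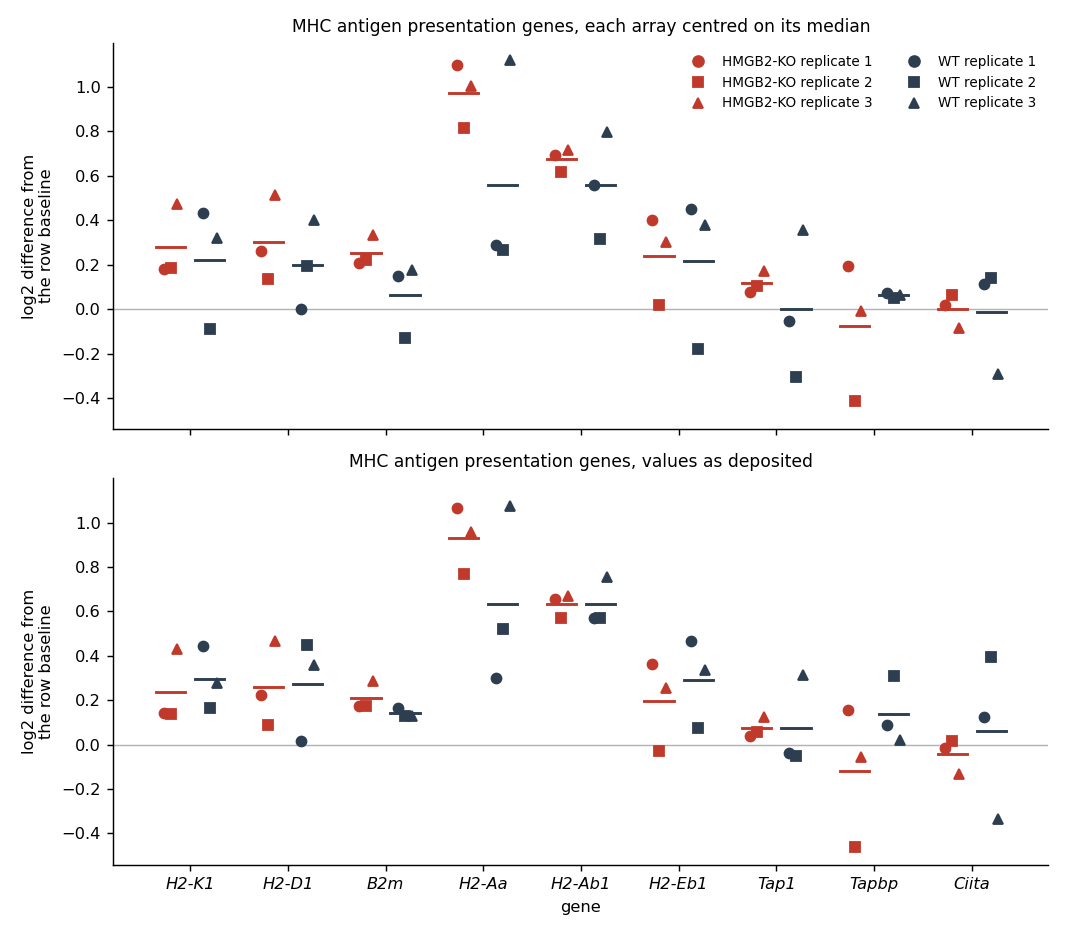
Log2 difference from the row baseline of each gene in each liver, HMGB2-KO in red left of WT in dark blue, with a bar at the group mean; symbols give the replicate. The upper panel has arrays centred on their median and the lower one the values as deposited, where the WT replicate 2 square no longer lies lowest for H2-K1 and H2-Eb1.

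Among the class I chains, B2m was the member whose genotypes did not overlap. It was at 0.21, 0.22 and 0.33 in HMGB2-KO livers, against 0.15, -0.13 and 0.17 in WT livers. All HMGB2-KO livers thus lay above all WT livers by a small margin, and they still did with the values as deposited, at 0.17, 0.17 and 0.29 in HMGB2-KO livers against 0.17, 0.13 and 0.13 in WT livers. With centring on ribosomal proteins the groups overlapped. Its log2 fold change was 0.19 (SE 0.13), a 1.14-fold difference with an interval of 0.921 to 1.41-fold, or 0.07 as deposited and 0.09 without WT replicate 2. The exact two-sided permutation test gave p = 0.1, the smallest that 3 against 3 livers allow, and limma an adjusted p of 0.994. That is 1 of 9 members, where 4.32% of all genes had every HMGB2-KO value above every WT value and 5.35% had every one below, 9.67% in either direction.

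The heavy chains H2-K1 and H2-D1 are close copies of each other and of the H2-Q and H2-T genes, so probes may read more than 1 of them. H2-K1 was at 0.18, 0.18 and 0.47 in HMGB2-KO livers, against 0.43, -0.09 and 0.32 in WT livers. HMGB2-KO replicate 3 and WT replicate 1 were highest and WT replicate 2 lowest, and the groups overlapped, with a log2 fold change of 0.06 (SE 0.17), or -0.06 as deposited and -0.01 centred on ribosomal proteins. H2-D1 was at 0.26, 0.13 and 0.51 in HMGB2-KO livers, against 0.00, 0.19 and 0.40 in WT livers. After centring, replicate 3 was the highest liver of either genotype, and the log2 fold change was 0.10 (SE 0.16), or -0.01 as deposited. Folds from 0.787 to 1.38 for H2-K1 and from 0.831 to 1.39 for H2-D1 lay within the 95% intervals.

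H2-Aa, the class II alpha chain, had the highest fold change of the 9 and varied most between livers. It was at 1.10, 0.82 and 1.00 in HMGB2-KO livers, against 0.29, 0.27 and 1.12 in WT livers. WT replicate 3 was the highest liver of all and the other two WT livers were the lowest, so the groups overlapped through that single liver. The log2 fold change was 0.42 (SE 0.24), 1.33-fold with an interval of 0.907 to 1.96-fold, and the adjusted p in limma was 0.994. Leaving out WT replicate 2 gave 0.27, leaving out WT replicate 3 gave 0.70, and the values as deposited gave 0.30. Within animals 38 to 41, which leaves out replicate 3 of both genotypes, it was 0.68 with 2 livers each and an adjusted p of 0.982 in limma. Its range over the 6 livers, 0.86 log2, was wider than that of 84.1% of all genes.

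The beta chain H2-Ab1, whose product pairs with that of H2-Aa, varied less. It was at 0.69, 0.62 and 0.72 in HMGB2-KO livers, against 0.56, 0.32 and 0.80 in WT livers. WT replicate 3 was again highest and WT replicate 2 lowest, and the HMGB2-KO livers lay within the WT range. The log2 fold change was 0.12 (SE 0.15), or -0.00 as deposited and also -0.00 with WT replicate 2 left out, with an interval of 0.852 to 1.38-fold. H2-Eb1 was at 0.40, 0.02 and 0.30 in HMGB2-KO livers, against 0.45, -0.18 and 0.38 in WT livers. Replicate 2 was the lowest liver of either genotype, and the log2 fold change of 0.02 (SE 0.20) turned to -0.10 as deposited, -0.04 centred on ribosomal proteins and -0.18 without WT replicate 2.

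The peptide loading genes Tap1 and Tapbp did not move together. Tap1 was at 0.08, 0.10 and 0.17 in HMGB2-KO livers, against -0.05, -0.31 and 0.36 in WT livers. The HMGB2-KO livers fell inside the WT spread, with a log2 fold change of 0.12 (SE 0.18), or -0.00 as deposited and -0.03 without WT replicate 2. Tapbp was at 0.19, -0.41 and -0.01 in HMGB2-KO livers, against 0.07, 0.05 and 0.07 in WT livers. After centring it was the only member with a mean lower in HMGB2-KO, -0.14 (SE 0.17) on the log2 scale. HMGB2-KO replicate 2 set that sign on centred arrays, since without it the centred value was 0.03. With all livers Tapbp was at -0.26 as deposited and -0.21 centred on ribosomal proteins.

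Ciita, the transactivator of class II genes, was at 0.02, 0.06 and -0.09 in HMGB2-KO livers, against 0.11, 0.14 and -0.29 in WT livers. WT replicate 3, the liver with the highest H2-Aa and H2-Ab1, had the lowest Ciita. The log2 fold change was 0.01 (SE 0.15), or -0.11 as deposited and -0.05 centred on ribosomal proteins, with an interval of 0.789 to 1.29-fold. Whether Ciita is read above background in whole liver is unknown, because the values hold no level.

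**Figure D3:**
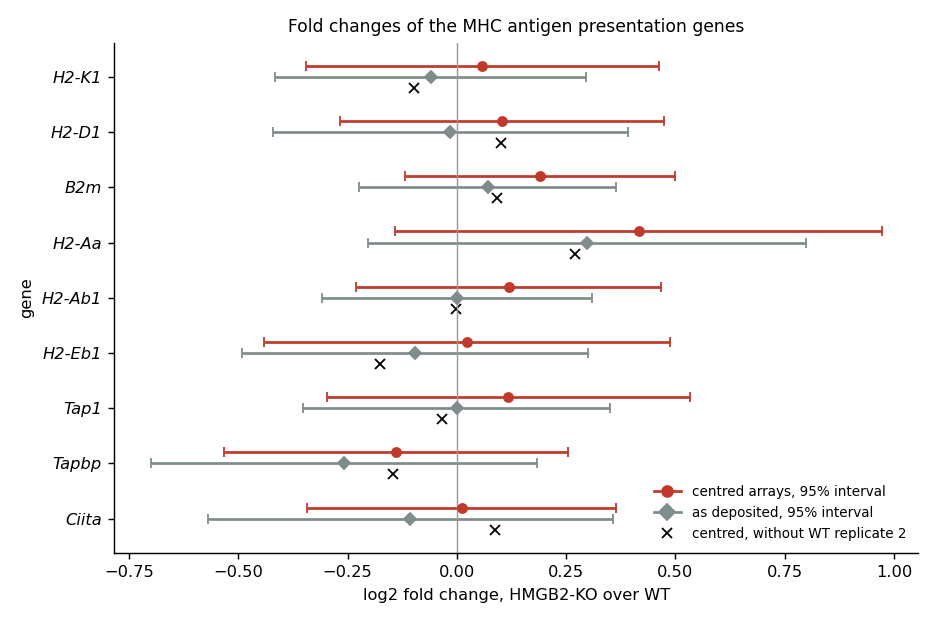
Log2 fold change of HMGB2-KO over WT for each gene with its 95% confidence interval from limma, with arrays centred (red) and with the values as deposited (grey), and the centred estimate without WT replicate 2 (cross). All intervals span 0, and the estimates of H2-K1, H2-D1, H2-Eb1 and Ciita lie on opposite sides of 0 in the red and grey sets, while the grey points of H2-Ab1 and Tap1 lie at 0.

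Liver by liver, the members peaked most often in the animals numbered 32 and 31. HMGB2-KO replicate 3 (animal 32) was highest for H2-K1, H2-D1 and B2m, and WT replicate 3 (animal 31) for H2-Aa, H2-Ab1 and Tap1. These are 6 of the 9 members, where 32.6% of all genes had their highest value in 1 of these livers, and 5 of 9 against 16.5% with the values as deposited. The lowest value was in WT replicate 2 for 6 of the 9 members after centring, against 22.3% of all genes, but for 2 of 9 as deposited, against 3.74% of all genes. Of the remaining members, H2-Eb1 peaked in WT replicate 1, Tapbp in HMGB2-KO replicate 1 and Ciita in WT replicate 2. Without WT replicate 2 the range over the other livers was 0.18 log2 for B2m, wider than that of 5.63% of all genes, and 0.24 for H2-Ab1 (12.9%), but 0.83 for H2-Aa (88.7%).

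The wider antigen presentation list held 78 genes in 9 roles, of which 69 were measured. No gene of it passed the adjusted threshold in limma and 0 had an unadjusted p under 0.05, beside 3.68% of all genes. The fold change was above 0 for 50 of the 69 (median 0.09) after centring, beside 49.5% of all genes. As deposited it was above 0 for 25 (36.2%, beside 23% of all genes), centred on ribosomal proteins for 42 (60.9%, beside 34.4%) and without WT replicate 2 for 39 (56.5%, beside 47.7%). The list's median was 0.093 above that of all genes with all 6 livers and 0.029 above it without WT replicate 2. By role, all 9 class II chains and all 7 class II processing genes lay above 0, as did 7 of 12 class I chains, 6 of 9 peptide loading genes, 4 of 5 genes of the immunoproteasome and its activator, and 4 of 10 transactivators. So did 4 of 4 constitutive proteasome counterparts, 4 of 7 class I-like chains and 5 of 6 costimulatory genes. With the values as deposited the class II chains had 5 of 9 above 0 and the class I chains 1 of 12.

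**Figure D4:**
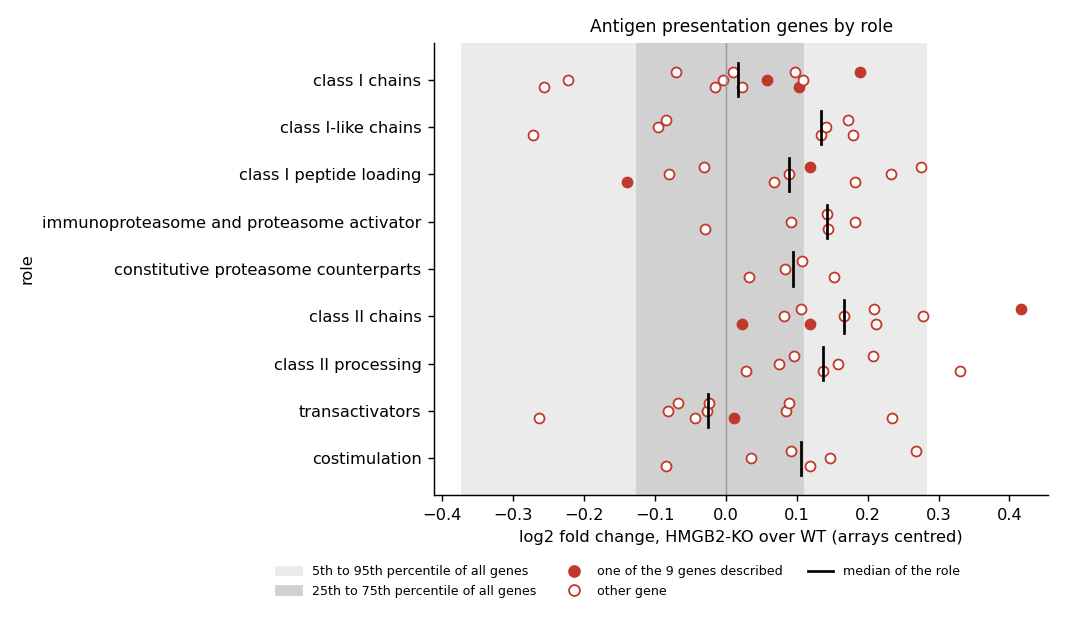
Log2 fold change of HMGB2-KO over WT for the 69 measured genes of the antigen presentation list, by role, with filled points for the 9 genes described, a black line at each role's median and grey bands for the middle of all 19505 genes. The class II chains, with a median of 0.17, all lie right of 0, while the transactivators, with a median of -0.03, lie on both sides.

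The class II loading and processing genes gave no call. H2-DMa, a chain of the peptide editor of class II molecules, was at 0.64, 0.36 and 0.68 in HMGB2-KO livers, against 0.04, 0.35 and 0.45 in WT livers, a log2 fold change of 0.28 (SE 0.16). HMGB2-KO replicates 1 and 3 were highest, while HMGB2-KO replicate 2 lay between WT livers. Its partner H2-DMb1 had a log2 fold change of 0.21 (SE 0.20), or 0.02 without WT replicate 2 and 0.40 when WT replicate 3 was left out, and its highest liver was WT replicate 3. Ctss, the protease cathepsin S that trims the invariant chain, was at 0.10 (SE 0.18), or -0.02 as deposited. The ubiquitin ligase Marchf1, which removes class II molecules from the surface of antigen presenting cells, had the smallest p of the list's genes above 0, with 0.26, 0.49 and 0.14 in HMGB2-KO livers, against -0.29, 0.08 and 0.11 in WT livers. That is a log2 fold change of 0.33 (SE 0.16, adjusted p = 0.994 in limma). Without WT replicate 1 it was 0.20 for Marchf1 and 0.16 for H2-DMa.

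Class I partners showed no call either. Tap2 had a log2 fold change of 0.23 (SE 0.15), or 0.12 without HMGB2-KO replicate 2 and 0.11 as deposited. The immunoproteasome genes Psmb8 and Psmb9 had 0.18 (SE 0.19) and 0.09 (SE 0.13), and Psmb10 had -0.03 (SE 0.14). Psmb8 was at -0.01 without WT replicate 2 and Psmb9 at -0.03 as deposited. Cd274, which encodes the T cell inhibiting ligand PD-L1, was at 0.27 (SE 0.14), the next smallest p above 0. The smallest p below 0 belonged to Mr1, which shows vitamin B metabolites to innate-like T cells, at 0.46, 0.19 and 0.34 in HMGB2-KO livers, against 0.76, 0.65 and 0.41 in WT livers (log2 fold change -0.27, SE 0.14). H2-Q4, a class I gene of the Q region, followed at -0.26 (SE 0.16), and it was -0.17 when HMGB2-KO replicate 2 was left out and -0.15 when WT replicate 3 was.

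Genotypes did not overlap for 5 of the 69 genes, all with HMGB2-KO above WT (7.25%, beside 4.32% of all genes). Besides B2m and Marchf1 these were Azgp1 (log2 fold change 0.17, SE 0.11), the class II chain H2-Eb2 (0.17, SE 0.12, or 0.099 without HMGB2-KO replicate 2) and the ubiquitin ligase Marchf8 (0.21, SE 0.12), named after their values were seen. Centred on ribosomal proteins, Azgp1 and Marchf8 still did not overlap, beside 1.7% of all genes with HMGB2-KO above WT, and Mr1 and Cd1d2 had HMGB2-KO below WT, beside 8.38% of all genes. With the values as deposited B2m alone of the 5 did not overlap, beside 0.795% of all genes with HMGB2-KO above WT. The CD1 gene Cd1d2, also named after its values were seen, overlapped after centring but then had every HMGB2-KO value below every WT value, at 0.08, -0.08 and 0.08 in HMGB2-KO livers against 0.23, 0.33 and 0.13 in WT livers. Under that scaling 10.6% of all genes lay below WT in this way.

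None of the 10 measured transactivators and their partners passed the threshold. Irf1, a transcription factor induced by interferon, was at 0.02, -0.22 and 0.65 in HMGB2-KO livers, against 0.62, 0.06 and 0.56 in WT livers, a log2 fold change of -0.26 (SE 0.25). It was -0.076 when HMGB2-KO replicate 2 was left out, -0.51 when HMGB2-KO replicate 3 was, -0.16 when WT replicate 1 was and -0.44 when WT replicate 2 was. It was high in HMGB2-KO replicate 3 and WT replicates 1 and 3 and low in the rest. The RFX subunit Rfxank, singled out after its values were seen, was at -0.30, -0.47 and 0.36 in HMGB2-KO livers, against -0.22, -0.96 and 0.85 in WT livers, so only the livers numbered 3 lay above 0. Rfx5, the DNA-binding partner of Rfxank, was at -0.57 in HMGB2-KO replicate 1, between 0.03 and 0.07 in the other HMGB2-KO livers and between -0.14 and 0.03 in WT livers (log2 fold change -0.08, SE 0.19). Nlrc5, also on the list, was not analysed here.

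Markers of cells that carry class II molecules were set beside these genes. All 13 measured markers of Kupffer cells and macrophages lay above 0 after centring, beside 49.5% of all genes. So they did without WT replicate 2 (beside 47.7%) and centred on ribosomal proteins (beside 34.4%). As deposited 11 of 13 did, beside 23% of all genes. The median of that list was 0.53, 0.41 and 0.60 in HMGB2-KO livers, against 0.26, 0.27 and 0.40 in WT livers, so the genotypes did not overlap. As deposited it was 0.49, 0.36 and 0.55 in HMGB2-KO livers, against 0.27, 0.52 and 0.35 in WT livers, and they did. Centred on ribosomal proteins it was 0.63, 0.63 and 0.72 in HMGB2-KO livers, against 0.43, 0.56 and 0.56 in WT livers, again without overlap. Genotypes were also separated by the medians of endothelial markers, after centring only, and of cholangiocyte markers, in the opposite direction. After centring, endothelial medians were 0.59, 0.63 and 0.63 in HMGB2-KO livers, against 0.53, 0.58 and 0.53 in WT livers. They overlapped as deposited and centred on ribosomal proteins. Cholangiocyte medians were lower in every HMGB2-KO liver than in any WT liver under all 3 scalings. As deposited they were -0.17, -0.24 and -0.19, against 0.17, 0.27 and -0.01. No marker passed the adjusted threshold in limma. The class II chains of the list had medians of 0.40, 0.25 and 0.47 in HMGB2-KO livers, against 0.04, 0.04 and 0.38 in WT livers. Those medians are after centring. As deposited they were 0.36, 0.21 and 0.42 in HMGB2-KO livers, against 0.06, 0.29 and 0.34 in WT livers. The genotypes overlapped under both scalings, and the low median of WT replicate 2 was seen only after centring. After centring, dendritic cell markers were above 0 for 5 of 10 genes, beside 49.5% of all genes. Their list medians were between -0.00 and 0.04 in HMGB2-KO livers and between -0.01 and 0.02 in WT livers. B cell markers were above 0 for 7 of 9 genes, beside the same 49.5%. Their list medians were between 0.00 and 0.13 in HMGB2-KO livers and between -0.16 and 0.17 in WT livers. The part of these cells in the class II values was not tested, and since values hold no level, markers at or near 0 cannot be recognised.

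Interferon gamma, the chief inducer of both MHC classes, was followed through 15 measured genes of its receptor, signalling and response. Of these 9 lay above 0 (60%, beside 49.5% of all genes), with a median log2 fold change of 0.01. As deposited 4 of 15 did (26.7%, beside 23% of all genes), with a median of -0.11, against -0.12 over all genes. Their list median was 0.19, 0.10 and 0.20 in HMGB2-KO livers, against 0.20, 0.11 and 0.28 in WT livers, and the genotypes overlapped. Hepatocyte markers were above 0 for 8 of 9 genes after centring, beside 49.5% of all genes. They were above 0 for 1 of 9 as deposited (beside 23%), 4 of 9 centred on ribosomal proteins (beside 34.4%) and 4 of 9 without WT replicate 2 (beside 47.7%). They had list medians of 0.05, 0.03 and 0.04 in HMGB2-KO livers, against 0.00, -0.18 and 0.04 in WT livers, with WT replicate 2 alone apart from the others. With the values as deposited that array was at 0.08, against -0.02 to 0.01 in HMGB2-KO livers and -0.01 and 0.02 in the other WT livers.

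**Figure D5:**
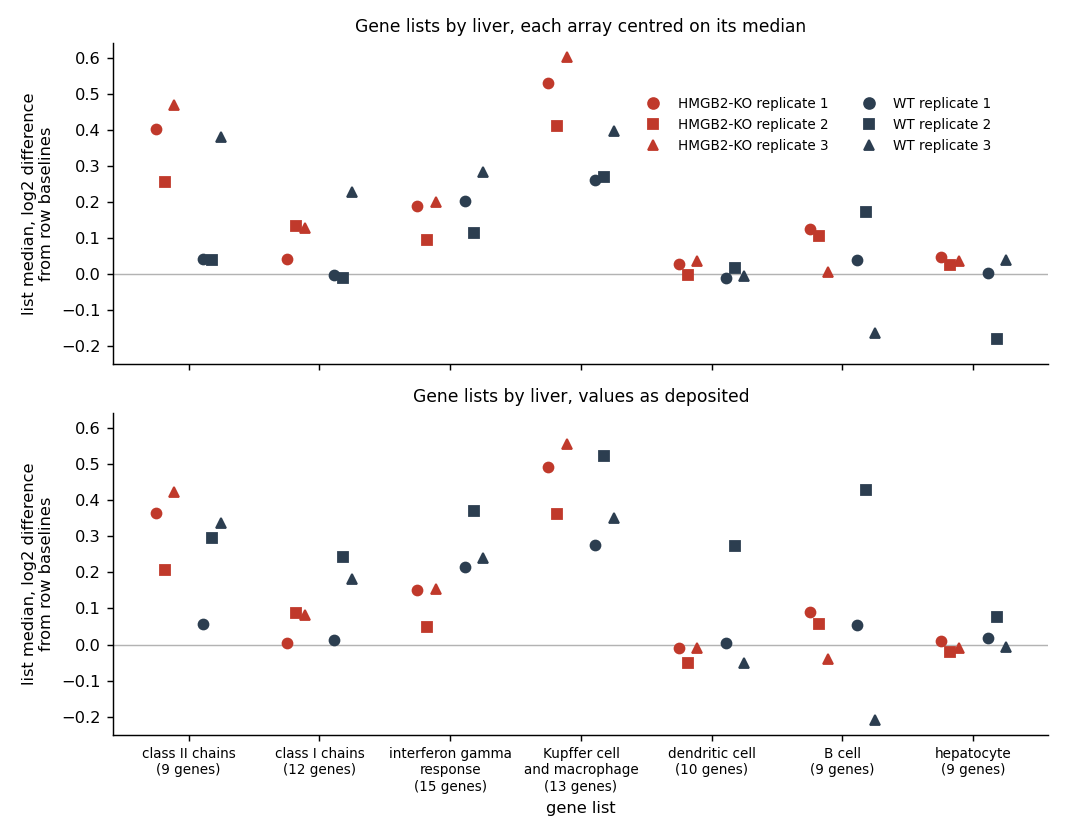
Median log2 difference from the row baselines of 7 gene lists in each liver, HMGB2-KO in red left of WT in dark blue, with arrays centred (top) and with the values as deposited (bottom). The Kupffer cell and macrophage medians separate the genotypes in the upper panel but not in the lower one, where WT replicate 2 stands at 0.52.

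The genes outside the list with the profile nearest to the members over the 6 livers were ranked by the root mean square difference, each profile reduced by its own mean. Nearest to the mean of H2-Aa, H2-Ab1 and H2-Eb1 were Kdm4c (0.040 log2), Ctdspl (0.052) and Arhgef7 (0.056), among 6406 genes that vary at least as much. Nearest to the mean of H2-K1, H2-D1 and B2m were Pgap2 (0.030), Spint2 (0.032) and Gabarap (0.035), among 14075 genes. These ranks are after centring, where WT replicate 2 was at -0.40 in the class II profile and -0.23 in the class I profile. As deposited it was at -0.16 and 0.01. Ctdspl and Pgap2 were then not among the 10 nearest, while the other genes named here were. With 6 livers and so many genes such a likeness is a description. Of the 74 genes with the shared promoter spacing 60 were measured, H2-K1, H2-D1, B2m and H2-Aa among them. After centring 39 of the 60 lay above 0 (median 0.04), beside 49.5% of all genes, with 0 past the adjusted threshold in limma. Other scalings were not counted for them.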

How the data were processed

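The deposited table holds log2 values, 1 column per liver and 22206 rows, which the authors give relative to a baseline of each row. Baseline, probe summarization, normalization and the base of the logarithm: not given in the sources used here. Log2 is assumed. Per the labels' protocols, RNA was extracted with Trizol and cDNA was biotin-labelled in duplicate; each animal has 1 column. The platform annotation names 19572 rows. Of the rows of 55 genes that have more than 1, that of highest mean was used. After median centring of each array, limma 3.58.1 (R 4.3.3; lmFit and eBayes, two-sided) fitted genotype over all 6 livers. The fit was tested on simulated data with changes far larger than the members' estimates. That test says nothing about finding differences of their size. The number of arrays limits the precision. Gene names matched the RefSeq table of GRCm38.p6, and no array coordinates are given.

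Members, lists and tests were chosen with earlier results of these data known. Named genes are the members, fixed partners (among them Tap2, Psmb8, Psmb9, Psmb10, Nlrc5, H2-DMa, H2-DMb1, Rfx5, Irf1, Ctss, with Hmgb2), list genes past the threshold, the 2 smallest p per direction and the 3 nearest profiles per class. The class II profile was meant to include Cd74. Further marker lists, of T and NK cells (6 of 11 genes above 0), endothelium (7 of 9), stellate cells (3 of 6) and cholangiocytes (2 of 7), had no gene past the adjusted threshold. These counts are after centring, beside 49.5% of all genes above 0. Alternatives were the values as deposited, quantile normalization, the mean of a gene's rows, a replicate block, array weights, trend with robust moderation, each liver left out, animals 38 to 41 alone and centring on ribosomal protein rows.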

Additional observations from a re-analysis of the deposited data

How the results depend on the processing

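The number of members, of antigen presentation genes and of all genes past the adjusted threshold in limma was 0 under each of the 14 other settings, with from 601 to 946 genes at an unadjusted p under 0.05 against 717. Among named genes 356 values under those settings kept their direction and 36 turned. Of the 126 values that belong to the members 23 turned. With the values as deposited H2-K1 was at -0.060, H2-D1 at -0.015, H2-Ab1 at -7.8e-05, H2-Eb1 at -0.095, Tap1 at -0.00027, Ciita at -0.11, Ctss at -0.022 and Psmb9 at -0.027. With array weights H2-K1 was at -0.017 and H2-Eb1 at -0.072. Centred on ribosomal protein rows, a setting chosen after seeing the data, H2-K1 was at -0.0072, H2-Eb1 at -0.043 and Ciita at -0.054. Within animals 38 to 41 Ciita was at -0.084, Psmb10 at 0.073 and Rfxank at 0.21. With 1 liver left out the values ran from -0.10 to 0.16 for H2-K1, -0.0018 to 0.21 for H2-D1, -0.0021 to 0.24 for H2-Ab1, -0.18 to 0.14 for H2-Eb1, -0.035 to 0.30 for Tap1, -0.28 to 0.029 for Tapbp, -0.13 to 0.088 for Ciita, -0.014 to 0.24 for Ctss, -0.13 to 0.043 for Psmb10, -0.012 to 0.34 for Psmb8, -0.20 to 0.12 for Rfx5 and -0.45 to 0.45 for Rfxank. The cause was not tested. Samples of the same replicate number had consecutive animal numbers (38 and 39, 40 and 41, 31 and 32). Their deviations from the group means correlated at 0.04, 0.13 and 0.29. The values for replicates 2 and 3 were the highest between any HMGB2-KO and WT liver, but HMGB2-KO replicate 1 correlated better with WT replicate 2 (0.10). The main fit did not take the numbers as pairs. With the replicate number as a block 858 genes, against 717, had an unadjusted p under 0.05 and 0 passed. The block lowered the SE of some named genes and raised that of others. It went from 0.20 to 0.13 for H2-Eb1 and from 0.25 to 0.17 for Irf1, but from 0.11 to 0.12 for Azgp1.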
